A study of Rattus norvegicus with 20 samples.

Results

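Fos and Jun genes encode the subunits of the transcription factor AP-1, and their transcripts were followed here in the nucleus accumbens of rats that had taken cocaine. The members were taken by symbol, as the rows of the deposited count table named Fos, Fosb, Fosl1, Fosl2, Jun, Junb and Jund. The choice was made with earlier results of these data known. All 7 were found among the 17296 symbols of the table, and all 7 passed the filter on low counts that left 12846 genes for testing. Their levels are given in CPM, counts scaled to the library size.

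The series compared what the rats drank. Abx rats drank antibiotics, which deplete the gut microbiome (n = 4), SCFA rats drank short-chain fatty acids, the products of bacterial fermentation (n = 6), Abx_SCFA rats drank both (n = 5), and H2O rats drank water (n = 5). All 20 rats were male wild-type Sprague-Dawley animals, 7 to 9 weeks old per the labels, housed 2 to a cage, and all self-administered cocaine, so no value bears on cocaine itself. Which antibiotics and which fatty acids were given, and the time between the last cocaine session and the dissection, are unknown from the sources used here. The samples are pieces of bulk tissue, in which fewer cells of a type and less RNA per cell cannot be told apart.

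A Fos protein pairs with a Jun protein through a leucine zipper, and the pair binds the AP-1 site of its target genes; Jun proteins can also pair with each other. Transcripts of most of these genes are immediate early: synaptic activity, calcium and cAMP raise them within minutes through CREB, SRF and the ternary complex factors, and they decay within hours. In the accumbens, repeated drug exposure is known to build up ΔFosB, a stable truncated product of Fosb made by alternative splicing. Counts per gene do not separate that splice form from full-length Fosb.

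Library totals ran from 17525358 to 25731636 counts, and none of the 190 pairs of libraries agreed within sampling noise. Markers of medium spiny neurons, the principal neurons of the accumbens, were abundant, with a summed level of 5288 to 12110 CPM over 20 genes. SCFA replicates 2 and 5 stood apart with the lowest scores of this list (mean log2 CPM 7.37 and 7.36, against at least 8.04 in the other libraries). Counts of Cend1, a neuronal cell cycle exit gene, were 4 to 14 in SCFA rats, 8 in Abx_SCFA replicate 5 and 7 in H2O replicate 4, against 88 to 240 in the remaining rats. Whether these libraries carry the right label was not tested. By the first digit of the rat number in the titles, all SCFA and Abx_SCFA rats belong to series 4 and the Abx and H2O rats to series 2 and 3. Fatty acids and number series therefore cannot be told apart against H2O or Abx.

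Fos, the founding member and a standard marker of recent neuronal activity, was the most variable of the 7. It stood at 50.1, 28.2, 24.6 and 40.2 CPM in Abx rats. SCFA rats ran from 18.9 to 54.6 CPM around a median of 34.1, and Abx_SCFA rats stood at 29.7, 28.5, 32.4, 32.7 and 27.8 CPM. H2O rats stood at 20.1, 33.2, 17.6, 27.9 and 27.6 CPM. The Abx_SCFA rats lay close together, while Abx and SCFA rats reached both the H2O range and levels above it. Group means were 35.8 ± 11.6 CPM in Abx, 35.6 ± 13.1 in SCFA, 30.2 ± 2.23 in Abx_SCFA and 25.3 ± 6.33 in H2O (SD), and each pair of groups overlapped.

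Fosb, the gene of FosB and ΔFosB, differed less between groups than between rats. Its level was 64.2, 55.6, 52.6 and 47.3 CPM in Abx rats, and 53.3, 61.1, 48.5, 60.3 and 50.9 CPM in Abx_SCFA rats. SCFA rats spanned 36.5 to 79.5 CPM around a median of 51.7. H2O rats had 42.2, 72.2, 49.8, 51.2 and 42.7 CPM. The group means lay between 51.6 and 56.1 CPM, and both extremes of the whole series were SCFA rats.

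Fosl1 and Fosl2 encode Fra-1 and Fra-2, Fos proteins that lack the transactivation domain of c-Fos. Fosl1 stood at 6.32, 5.87, 5.58 and 4.95 CPM in Abx rats and 5.73, 6.29, 5.54, 6.41 and 6.08 CPM in Abx_SCFA rats. SCFA rats ran from 4.04 to 6.80 CPM with a median of 6.33, and H2O rats stood at 4.55, 7.50, 5.18, 5.05 and 4.49 CPM. The groups of Fosl1 overlapped, with 1 H2O rat above all others. Fosl2 stood at 25.2, 17.98, 21.5 and 21.7 CPM in Abx rats and 20.7, 20.8, 19.0, 18.004 and 16.1 CPM in Abx_SCFA rats. Its SCFA values lay between 14.4 and 24.1 CPM around a median of 20.4, and its H2O values were 16.2, 26.0, 15.6, 18.5 and 20.6 CPM. H2O replicate 2 was the highest of all 20 libraries for both genes.

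Jun, the main partner of Fos and itself an immediate early gene, was highest in SCFA rats. These ran from 59.9 to 92.3 CPM with a median of 73.3 and a mean of 75.7 ± 11.9 (SD). Abx rats stood at 82.3, 57.9, 56.4 and 74.6 CPM, and Abx_SCFA rats at 71.3, 64.5, 61.0, 67.6 and 56.3 CPM. H2O rats had 60.7, 66.5, 54.0, 65.6 and 74.3 CPM. The 2 highest libraries were SCFA replicates 2 and 5, and the lowest SCFA rat lay inside the range of every other group.

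JunB is known as a weaker activator than Jun, and JunD as the member with a steady basal level that changes least on stimulation. Their promoter windows are shown because they differ in the cAMP response element, the binding site of CREB. Both are RefSeq sequences of the GRCr8 assembly, from 250 bases before to 50 bases after the start of the gene, 5′ to 3′ on the strand of the gene. The Junb window is chr19:40080876-40081175 on the plus strand, and the Jund window chr16:18769722-18770021 on the minus strand. Capitals mark TGACGTCA, the full element, and TGACG or CGTCA, its short form, searched on both strands. The full element contains both short spellings.
Junb: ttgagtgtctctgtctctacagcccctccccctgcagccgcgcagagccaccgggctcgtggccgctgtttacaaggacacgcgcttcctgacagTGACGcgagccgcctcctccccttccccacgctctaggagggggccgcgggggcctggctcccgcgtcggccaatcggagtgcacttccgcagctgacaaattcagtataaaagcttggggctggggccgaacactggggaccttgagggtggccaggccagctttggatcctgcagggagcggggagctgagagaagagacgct
Jund: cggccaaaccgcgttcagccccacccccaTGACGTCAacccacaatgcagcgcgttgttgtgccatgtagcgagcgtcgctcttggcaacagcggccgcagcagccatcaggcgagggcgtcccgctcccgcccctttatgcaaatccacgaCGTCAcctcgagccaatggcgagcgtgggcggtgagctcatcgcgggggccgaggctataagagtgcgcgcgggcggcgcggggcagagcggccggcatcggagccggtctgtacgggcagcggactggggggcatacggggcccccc

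Of the 7 genes, Fosb, Fosl1, Fosl2, Junb and Jund were matched in the promoter table. The Jund window held the full element, with its first base at position -221 from the start, and a further short form at -98. Junb held 1 short form at -155, Fosl1 held 2, at -148 and -84, and the windows of Fosb and Fosl2 held none of these letters. Among 33469 rat promoters of the same length, 1.83% held the full element and 21.2% a short form. The AP-1 site, TGACTCA or TGAGTCA, occurred in 4.63% of promoters and in none of the 5 windows, which says only that these letters are absent there. A match is a description of the sequence and shows no binding.

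Junb levels were 156, 138, 138 and 155 CPM in Abx rats, and 136, 133, 146, 154 and 128 CPM in Abx_SCFA rats. SCFA rats ran from 103 to 155 CPM around a median of 124, and H2O rats stood at 129, 165, 110, 132 and 130 CPM. The highest rat was again H2O replicate 2, and the lowest 1 of the SCFA rats. Jund was 175, 146, 173 and 179 CPM in Abx rats and 170, 151, 187, 194 and 184 CPM in Abx_SCFA rats. Its SCFA levels lay between 157 and 189 CPM with a median of 164, and its H2O levels were 156, 169, 162, 158 and 174 CPM. Of the 5 Abx_SCFA rats, 3 exceeded every H2O rat for Jund.

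**Figure D1:**
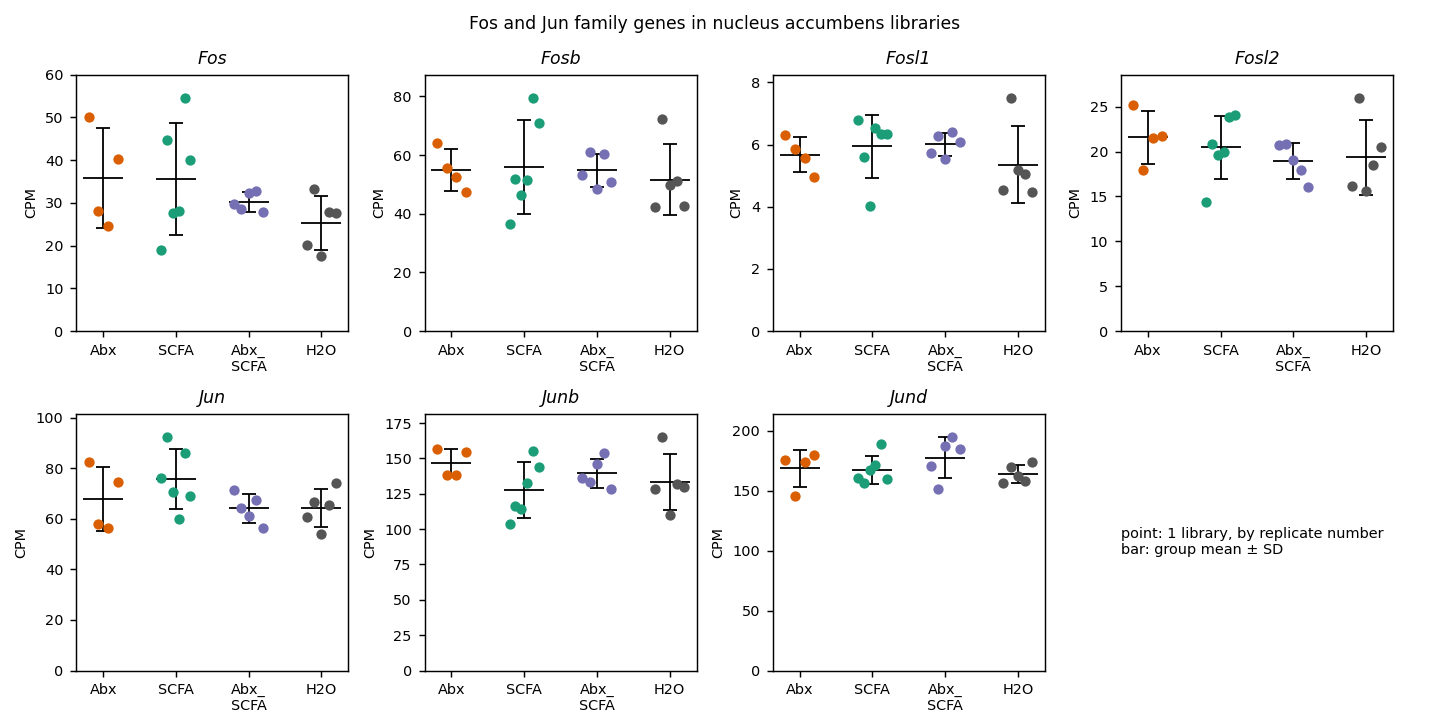
Level of each Fos and Jun gene in every library (points, CPM, 1 panel a gene) with the group mean and SD (bars) for Abx, SCFA, Abx_SCFA and H2O rats. Fos points spread from 17.6 to 54.6 CPM and the groups overlap in each panel, with the narrowest Fos spread in Abx_SCFA.

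The question whether antibiotics alone, fatty acids alone or both shift these genes was tested with edgeR's quasi-likelihood F test over all 12846 genes. The test called 0 of the 7 members and 0 of 12846 genes (0%) at a Benjamini-Hochberg adjusted p below 0.05 in each of the 5 pairwise comparisons and in the interaction. At an unadjusted p below 0.05, 0 of 7 members passed in each pairwise comparison, where 8.79% of all genes did so in Abx against H2O, 13.8% in SCFA against H2O, 5.56% in Abx_SCFA against H2O, 3.19% in Abx_SCFA against Abx and 6.78% in Abx_SCFA against SCFA. DESeq2 and limma-voom, with and without sample quality weights, also called 0 of 7. In the pairwise comparisons, DESeq2 put Fos below an unadjusted p of 0.05 in Abx against H2O, Fos and Jun in SCFA against H2O and Jun in Abx_SCFA against SCFA. With quality weights, limma-voom did so for Fos in Abx against H2O (unadjusted p = 0.0271, adjusted p = 0.320) and for Jund in Abx_SCFA against H2O (unadjusted p = 0.0415, adjusted p = 0.294).

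In Abx against H2O, 7 of 7 members had positive log2 fold changes, where 47.7% of all genes did, with a median of 0.09 against -0.01 over all genes. Fos had the largest, 0.50 ± 0.26 (SE, 95% interval -0.05 to 1.05, edgeR unadjusted p = 0.0674, adjusted p = 0.588). An exact two-sided permutation of the 9 libraries gave p = 0.119 for Fos. Without Abx replicate 1, the highest Abx rat, the edgeR log2 fold change of Fos was 0.30. As a difference of mean log2 CPM, Fos was at 0.54 within series 2 (2 Abx and 2 H2O rats) and 0.40 within series 3 (2 Abx and 3 H2O rats). By that measure Jund was at -0.025 within series 2, and every further member was positive in both series. In the edgeR fit of all libraries the other members had smaller values than Fos. Fosb stood at 0.09 ± 0.19, Fosl1 at 0.09 ± 0.15, Fosl2 at 0.16 ± 0.15, Jun at 0.08 ± 0.13, Junb at 0.14 ± 0.11 and Jund at 0.04 ± 0.08. Without H2O replicate 2, the highest library for Fosl1, Fosl2 and Junb, the log2 fold change was 0.62 for Fos, 0.25 for Fosb, 0.29 for Fosl2 and 0.24 for Junb (edgeR unadjusted p = 0.0363, adjusted p = 0.603), and none was called. Markers of oligodendrocytes, the myelin-forming cells, were lower in the same comparison, with positive values for 0 of 15. Their median was -0.67, with 12 below an unadjusted p of 0.05, and their part in the members' values was not tested. Cortical excitatory neuron markers, described below, were positive for 11 of 12, with a median of 1.75 and 6 higher at an edgeR unadjusted p below 0.05.

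In SCFA against H2O, 6 of 7 members had positive log2 fold changes, where 48.9% of all genes did, and the median was 0.12 against 0.00 over all genes. Fos stood at 0.49 ± 0.24 (SE, 95% interval -0.01 to 0.99, edgeR unadjusted p = 0.0511, adjusted p = 0.365, exact permutation p = 0.167). Jun stood at 0.24 ± 0.12 (edgeR unadjusted p = 0.0534, adjusted p = 0.369, exact permutation p = 0.104). Both values were smaller without SCFA replicates 2 and 5, with Fos at 0.18 and Jun at 0.10. Medium spiny neuron markers had positive values for 0 of 19 in this comparison, with a median of -0.34 and 7 lower at an unadjusted p below 0.05, and their part in the Jun value was not tested. Junb was the 1 member with a negative value, -0.06 ± 0.10, beside Fosb at 0.12 ± 0.17, Fosl1 at 0.15 ± 0.14, Fosl2 at 0.08 ± 0.14 and Jund at 0.03 ± 0.07.

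In Abx_SCFA against H2O, 5 of 7 members had positive values, where 47.6% of all genes did, with a median of 0.09 against -0.01. Fos stood at 0.25 ± 0.25 (95% interval -0.27 to 0.78) and Fosl1 at 0.17 ± 0.15. The smallest p of a member was that of Jund, with 0.12 ± 0.07 (edgeR unadjusted p = 0.124, adjusted p = 0.815). Fosb at 0.09 ± 0.18, Junb at 0.07 ± 0.10, Fosl2 at -0.03 ± 0.14 and Jun at 0.00 ± 0.12 lay within their standard errors of 0. These 3 comparisons share the H2O libraries, so their common direction is not independent.

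In Abx_SCFA against Abx, 2 of 7 members were positive (49.9% of all genes) and the median was -0.07 against 0.00. Fos stood at -0.25 ± 0.26, Fosl2 at -0.19 ± 0.15, Jun at -0.08 ± 0.13 and Junb at -0.07 ± 0.11. Fosb was at 0.00 ± 0.19, Fosl1 at 0.08 ± 0.15 and Jund at 0.07 ± 0.08. The smallest unadjusted p among the 7 was 0.216, for Fosl2 (edgeR, adjusted p = 0.999).

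In Abx_SCFA against SCFA, the 1 pairwise comparison in which all rats carry numbers of the same series, 3 of 7 members were positive (45.5% of all genes) and the median was -0.03 against -0.01. Jun stood at -0.24 ± 0.11 (95% interval -0.48 to 0.01, edgeR unadjusted p = 0.0513, adjusted p = 0.734, exact permutation p = 0.0844). Without SCFA replicates 2 and 5 it was at -0.10. The medium spiny neuron markers were positive here for 19 of 19, with a median of 0.38 and 10 higher at an unadjusted p below 0.05. Fos stood at -0.24 ± 0.23 and at 0.08 without those libraries. Junb at 0.13 ± 0.10, Jund at 0.08 ± 0.07, Fosl2 at -0.11 ± 0.14, Fosb at -0.03 ± 0.17 and Fosl1 at 0.01 ± 0.14 did not pass either.

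The interaction asks whether the difference that antibiotics made was the same with and without fatty acids, as Abx_SCFA minus SCFA less Abx minus H2O. Since all rats given fatty acids carry numbers of series 4 and the others numbers of series 2 or 3, fatty acids and number series cannot be told apart here either. It was negative for 6 of 7 members, while 51.8% of all genes had positive values, and its median was -0.13 against 0.01 over all genes. Fos alone passed an unadjusted p of 0.05 among the 7, as 7.85% of all genes did. Its value was -0.74 ± 0.35 (SE, 95% interval -1.48 to -0.00095, edgeR unadjusted p = 0.0474, adjusted p = 0.626), and without 1 library it ran from -0.89 to -0.54. Jun stood at -0.32 ± 0.17, Fosl2 at -0.27 ± 0.20, Fosb at -0.13 ± 0.25, Fosl1 at -0.07 ± 0.21, Junb at -0.01 ± 0.15 and Jund at 0.04 ± 0.10. DESeq2 also put the Fos interaction below an unadjusted p of 0.05 and did not call it. With limma-voom the unadjusted p of the Fos interaction was 0.0755, and with sample quality weights 0.0763. With edgeR and without SCFA replicates 2 and 5 it was 0.188. Of the 12 cortical excitatory neuron markers described below, 1 was positive in the interaction. Their median was -2.79, and 8 were lower at an edgeR unadjusted p below 0.05. Their part in the Fos value was examined only as described below.

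**Figure D2:**
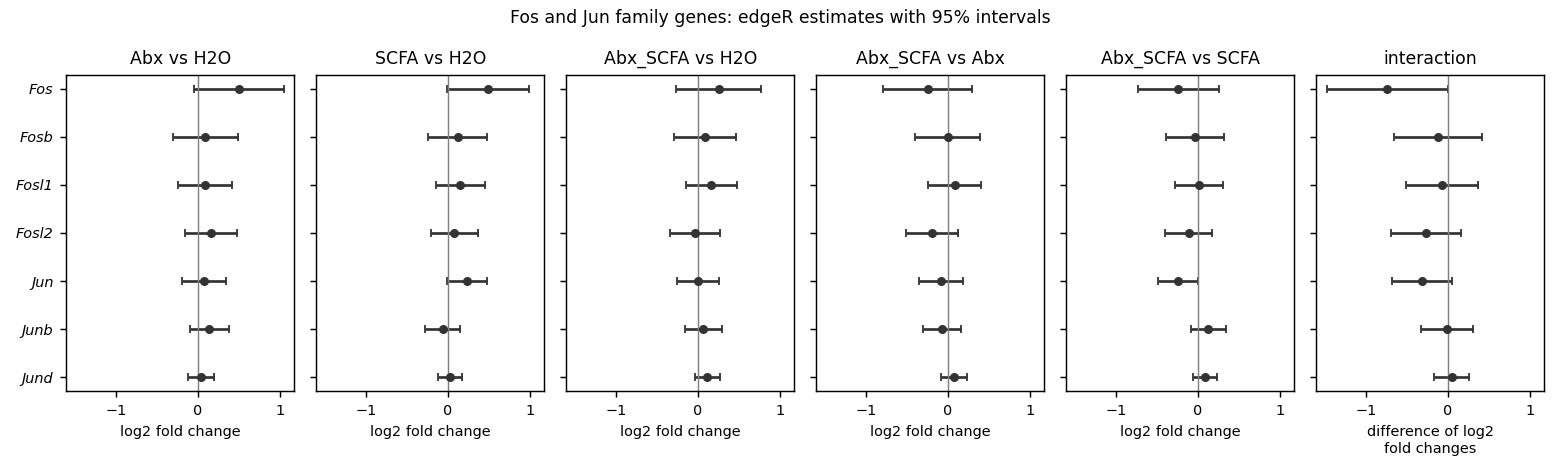
Log2 fold change of each Fos and Jun gene (points) with its 95% interval (bars) in the 5 pairwise comparisons and the interaction, from the edgeR model of all 20 libraries. Every pairwise interval includes 0, and the interval of the Fos interaction runs from -1.48 to -0.00095.

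For no member did 2 groups fail to overlap in any pairwise comparison. Over all genes, 2.46% had groups without overlap in Abx against H2O, 0.537% in SCFA against H2O, 1.42% in Abx_SCFA against H2O, 1.20% in Abx_SCFA against Abx and 0.560% in Abx_SCFA against SCFA. The edgeR test for any difference among the 4 groups also called 0 of 7 members and 0 of 12846 genes (0%), with unadjusted p values from 0.148 for Jun to 0.910 for Fosb, and 8.29% of all genes below 0.05. The order of the mean CPM was Abx, SCFA, Abx_SCFA and H2O for Fos. For Jun it was SCFA, then Abx, with Abx_SCFA and H2O level at 64.2 CPM each. H2O had the lowest mean CPM for Fos, Fosb, Fosl1 and Jund. Abx had the highest for Fos, Fosl2 and Junb, SCFA for Jun, and Abx_SCFA for Fosl1 and Jund. For Fosb the highest mean CPM was that of SCFA, but the mean log2 CPM of Abx and Abx_SCFA (5.77 each) exceeded that of SCFA (5.76). The ranges of neighbours in these orders overlapped for all 7 genes.

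Where the groups did not separate the genes, the individual rats did. The SD within groups was 0.42 on the log2 scale for Fos, at the 97.2 percentile among the 500 genes nearest to it in level, and its highest library exceeded the lowest 3.09-fold. Fosb followed with an SD of 0.30 (92.8 percentile, 2.18-fold range), then Fosl2 with 0.24 (83.2 percentile), Fosl1 with 0.23 (36 percentile), Jun with 0.20 (86 percentile) and Junb with 0.18 (76.2 percentile). Jund had the smallest SD, 0.11, at the 45.2 percentile and with a 1.34-fold range. Against genes of like level Fosl1, the member with the fewest counts, was the least variable.

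A few rats were high or low for several members at once. SCFA replicate 5 was among the 5 highest libraries for 6 of 7 members, Abx replicates 1 and 4 for 5 each, and SCFA replicate 6 and H2O replicate 2 for 4 each. Abx replicate 4 was also among the 5 lowest for Fosb and Fosl1. H2O replicate 1 was among the 5 lowest for 5 members, and H2O replicate 3, SCFA replicate 1 and SCFA replicate 3 for 4 each. Over the 20 rats, Fosl2 followed Fos with r = 0.78 (Spearman's rho 0.72), Fosb with r = 0.68 (rho 0.68), Jun with r = 0.67 (rho 0.58) and Junb with r = 0.65 (rho 0.74). These 4 of 6 relations had a permutation p below 0.05 after Benjamini-Hochberg adjustment over the 6, from 0.00036 for Fosl2 to 0.00264 for Junb (raw p from 6e-05 to 0.00176, and adjusted rho p from 0.0012 to 0.0126). Jund (r = 0.36, rho 0.31) and Fosl1 (r = 0.27, rho 0.36) did not.

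The 4 relations passed again without Abx replicate 1 and SCFA replicate 5, the libraries farthest from the median of Fos, with r from 0.53 (Jun) to 0.72 (Fosl2) and adjusted permutation p of at most 0.0369. They also passed on deviations from the group means, with r from 0.68 to 0.80. Within the 11 rats of series 4 r was 0.81 for Fosb, 0.80 for Fosl2, 0.60 for Junb and 0.50 for Jun. Within the 9 rats of series 2 and 3 it was 0.51, 0.82, 0.85 and 0.85 in the same order of genes. Among the 5 Abx_SCFA rats, too few for a correlation to be given, Fosb and Fosl2 hardly followed Fos. Junb did so there, and Jun less closely. Jun and Fosb, although both followed Fos, hardly followed each other (r = 0.18), nor did Jun and Junb (r = 0.10). Fosb was closer to Fosl2 (r = 0.72) and Junb (r = 0.70).

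Markers of cortical excitatory neurons, cells that lie outside the accumbens, moved with part of the family. The 12 markers tested summed to 218 to 869 CPM in Abx, 242 to 1745 in SCFA, 340 to 651 in Abx_SCFA and 160.5 to 500.6 in H2O rats. Of the sum in H2O rats, 102 to 132 CPM came from Lamp5, which stood at 100 to 130 CPM in Abx rats. In H2O rats Slc17a7 ran from 3.09 to 252 CPM around a median of 14.6. Of the 12, 11 had positive log2 fold changes in each treated group against H2O, with medians of 1.75 in Abx, 2.56 in SCFA and 1.48 in Abx_SCFA. Slc17a7, the vesicular glutamate transporter of these neurons, had 506, 43.7, 183 and 458 CPM in Abx rats, where Fos had 50.1, 28.2, 24.6 and 40.2. Neurod1 alone among the 12 was at 0 in any library, in 2 of the H2O rats. The markers' part in the Fos and Jun values was measured only as follows.

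Across the 20 rats, Fos followed the mean log2 CPM of the cortical markers with r = 0.81 (rho 0.70, permutation p = 2e-05, adjusted p = 0.00049 over 49 relations of 7 genes with 7 marker lists). The relation held without H2O replicates 1 and 3, farthest from the median of the score (r = 0.72, adjusted permutation p = 0.0441), on deviations from the group means (r = 0.80), without Nrn1, a marker that is itself activity-regulated (r = 0.81), within series 4 (r = 0.90, n = 11) and within series 2 and 3 (r = 0.80, n = 9). Jun followed the score with r = 0.66 (rho 0.61, permutation p = 0.00161, adjusted p = 0.0158). That relation missed the threshold without H2O replicates 1 and 3 (r = 0.58, adjusted permutation p = 0.0922). It also missed it without SCFA replicates 2 and 5 (r = 0.50, adjusted permutation p = 0.175), where Fos passed (r = 0.73, adjusted permutation p = 0.0174). Among the 5 Abx_SCFA rats, too few for a correlation to be given, Jun did not follow the score and Fos hardly did. The other members had r of 0.54 (Fosl2), 0.46 (Jund), 0.42 (Fosb), 0.36 (Junb) and 0.20 (Fosl1), with adjusted permutation p from 0.0583 to 0.654.

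With the cortical score as a covariate in the edgeR model, Fos against H2O stood at -0.12 ± 0.19 (SE) in Abx, -0.28 ± 0.19 in SCFA and -0.32 ± 0.18 in Abx_SCFA. The Fos interaction stood at 0.08 ± 0.25. Jun stood at -0.18 ± 0.11 in Abx, -0.06 ± 0.11 in SCFA and -0.24 ± 0.11 in Abx_SCFA (edgeR unadjusted p = 0.0358 in the last). Fosb stood at -0.16 ± 0.21, -0.20 ± 0.21 and -0.16 ± 0.20 in Abx, SCFA and Abx_SCFA. Junb in SCFA stood at -0.26 ± 0.12 in that model (edgeR unadjusted p = 0.0366). None of these was called. The values of the members against H2O were negative in that model, except for Fosl1 and for Jund in Abx_SCFA. Fosl1 stood at 0.09, 0.16 and 0.17 in Abx, SCFA and Abx_SCFA, and Jund in Abx_SCFA at 0.02. No direction of the members at equal cortical score was established. The score itself was higher in the treated groups, at 3.89 ± 0.97 in Abx, 4.23 ± 1.24 in SCFA, 3.85 ± 0.47 in Abx_SCFA and 2.01 ± 1.27 in H2O (mean log2 CPM, SD), so treatment and score cannot be fully told apart.

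**Figure D3:**
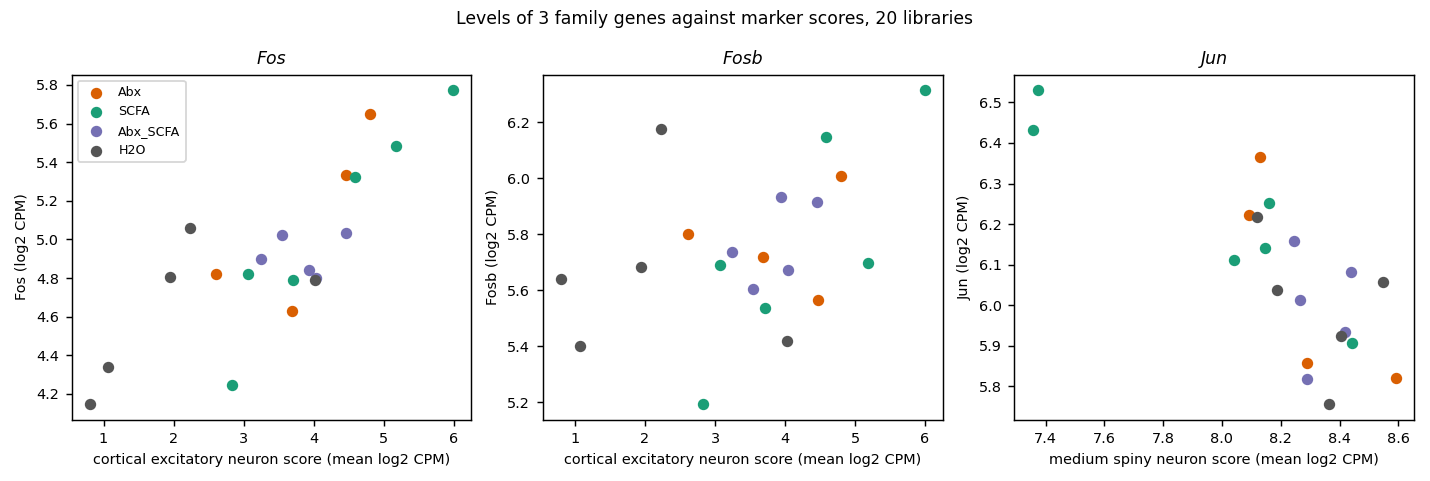
Fos and Fosb in log2 CPM against the mean log2 CPM of 12 cortical excitatory neuron markers, and Jun against that of 19 medium spiny neuron markers (horizontal axes), 1 point a library, coloured by group. Fos climbs along the cortical score with r = 0.81 and Fosb with r = 0.42, and 2 SCFA libraries lie apart at the left of the Jun panel.

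Fosb and Junb ran against a glial score. Both were lower where the score of microglia, the brain's resident macrophages, was higher, with r = -0.74 for Fosb (rho -0.68, permutation p = 8e-05, adjusted p = 0.00131) and r = -0.70 for Junb (rho -0.71, permutation p = 0.00064, adjusted p = 0.00784). Fos had r = -0.51 with the same score (rho -0.54, permutation p = 0.0239, adjusted p = 0.09). Without SCFA replicate 1 and H2O replicate 5, r was -0.65 for Fosb and -0.68 for Junb (adjusted permutation p = 0.0457 for both). On deviations from the group means Fosb passed (r = -0.77, adjusted permutation p = 0.0175) and Junb missed the threshold (r = -0.69, adjusted permutation p = 0.05145). Within series 4 r was -0.85 for Fosb and -0.79 for Junb (n = 11), and within series 2 and 3 it was -0.67 and -0.57 (n = 9). Among the 4 Abx rats, too few for a correlation to be given, neither gene ran against the score. The microglial markers summed to 573 to 596 CPM in Abx, 551 to 727 in SCFA, 567.9 to 683 in Abx_SCFA and 557 to 756 in H2O rats, so these ranges overlap in all groups. Fosb also ran against the oligodendrocyte score (r = -0.59, rho -0.58, permutation p = 0.00633, adjusted p = 0.0388) and the astrocyte score (r = -0.63, rho -0.55, permutation p = 0.0031, adjusted p = 0.0253). Both of the last relations missed the threshold by rho and without the 2 farthest libraries, and the part of glial cells in the Fosb level was not tested. Differences between the correlations of different members were not tested.

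Jun was lower where the medium spiny neuron score was higher. Because SCFA replicates 2 and 5 stand apart on that score, the relation is given over the other 18 libraries, where r was -0.65 (permutation p = 0.00373, adjusted p = 0.0457) and rho -0.68 (permutation p = 0.00246). For Fos r was -0.31 there (permutation p = 0.208, adjusted p = 0.446) and rho -0.22. The endothelial and mural list and the blood list gave adjusted permutation p of at least 0.0583 with all 7 members. Jund alone had r above 0.5 with library size (r = 0.58, rho 0.62, permutation p = 0.00726, adjusted p = 0.0508 over 7), a check added after the values were seen, and Fos had r = 0.47 (rho 0.37, permutation p = 0.038, adjusted p = 0.133).

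**Figure D4:**
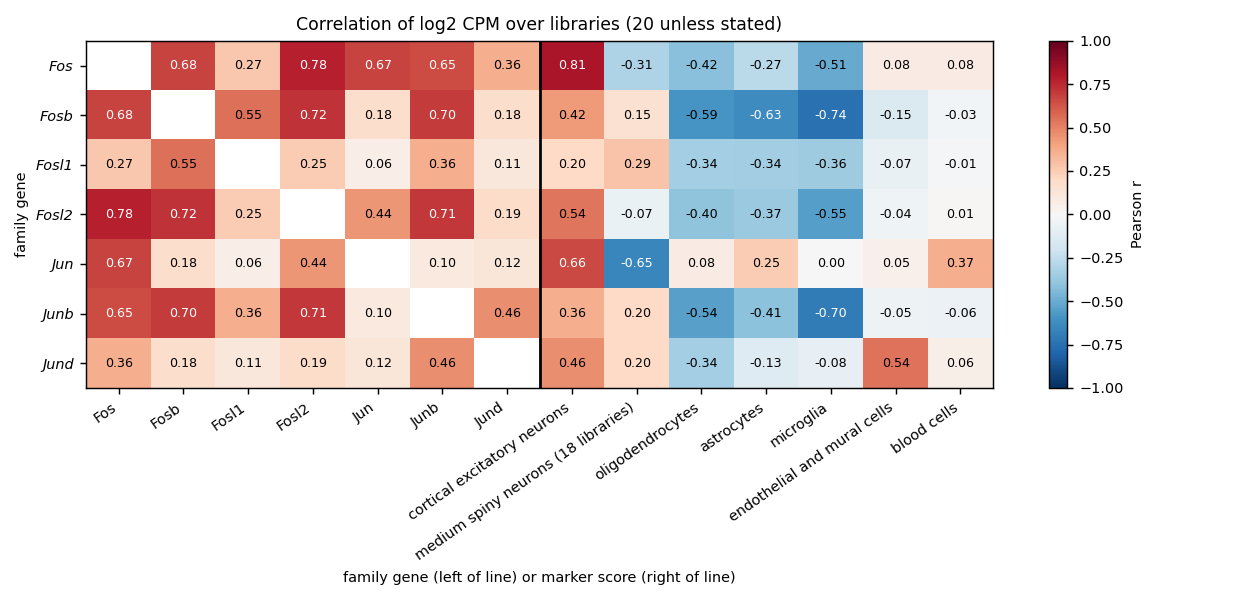
Pearson r of the log2 CPM of each Fos and Jun gene (rows) with the other members and with the mean log2 CPM of 7 cell type marker lists (columns), over 20 libraries, or over 18 for medium spiny neurons. Fos is warmest for cortical excitatory neurons at 0.81, and Fosb coldest for microglia at -0.74.

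Genes that act with or around AP-1 were examined as 4 lists chosen for their known roles, with earlier results of these data known. Each list had 0 members called in each of the 6 contrasts by edgeR, where 0% of all genes were called, so its members are described by size alone. Of 40 other immediate early genes tested, 33 were positive in Abx against H2O (median log2 fold change 0.18), 31 in SCFA against H2O (0.24) and 30 in Abx_SCFA against H2O (0.12), beside medians over all genes of -0.01, 0.00 and -0.01. They were positive for 13 in Abx_SCFA against Abx (-0.05), 10 in Abx_SCFA against SCFA (-0.11) and 9 in the interaction (-0.33). The unadjusted p was below 0.05 for 3 higher and 1 lower in Abx against H2O, 12 higher in SCFA against H2O, 1 higher in Abx_SCFA against H2O, 1 lower in Abx_SCFA against SCFA and 5 lower in the interaction. Of all genes, 8.79%, 13.8%, 5.56%, 6.78% and 7.85% passed in these contrasts, in that order and in either direction. Positive values were held by 45.5% to 51.8% of all genes over the 6 contrasts. DESeq2 and limma-voom called none of the members of the 4 lists either.

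The 2 smallest p of that list belonged in Abx against H2O to Dusp5, a phosphatase that inactivates ERK (0.62 ± 0.22, SE), and Nr4a2, an orphan nuclear receptor (1.78 ± 0.75). In SCFA against H2O they belonged to Dusp5 (0.64 ± 0.20) and Nptx2, a secreted synaptic pentraxin (1.02 ± 0.34). In Abx_SCFA against H2O they were again those of Dusp5 (0.58 ± 0.21) and Nr4a2 (1.40 ± 0.72). Dusp5 was thus first in every treated group against the shared H2O rats. Across the 20 rats these genes also followed the cortical score, with r of 0.95 for Nr4a2, 0.88 for Nptx2 and 0.76 for Dusp5, and the part of cortical cells in their values was not tested. Arl4d (-0.19 ± 0.11) and the neuronal factor Npas4 (-0.47 ± 0.28) led in Abx_SCFA against Abx. Maff, a small Maf factor (-0.48 ± 0.19), and the antiproliferative Btg2 (-0.53 ± 0.27) led in Abx_SCFA against SCFA. Csrnp1 (-0.74 ± 0.29) and the zinc finger factor Klf10 (-0.79 ± 0.31) led in the interaction. With the cortical score, r was 0.90 for Btg2, 0.86 for Klf10, 0.74 for Csrnp1, 0.65 for Npas4, 0.29 for Maff and -0.07 for Arl4d. The part of cortical cells in these values was not tested either. Across rats, 35 of the 40 had positive r with Fos, with a median of 0.65, and 35 with Fosb, with a median of 0.46.

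AP-1 partners are bZIP proteins of the ATF, MAF and related families that can pair with Fos or Jun, and 15 were tested. Positive values were found for 7 in Abx against H2O, 13 in SCFA against H2O, 9 in Abx_SCFA against H2O, 9 in Abx_SCFA against Abx, 1 in Abx_SCFA against SCFA and 4 in the interaction, with medians of -0.04, 0.13, 0.04, 0.03, -0.12 and -0.08 in that order. At an unadjusted p below 0.05 there were 2 higher and 1 lower in Abx against H2O, 5 higher in SCFA against H2O, 2 lower in Abx_SCFA against SCFA and 2 lower in the interaction. Of all genes, 8.79%, 13.8%, 6.78% and 7.85% passed in these contrasts, in that order and in either direction, and 45.5% to 51.8% had positive values. Atf1, a CREB relative, stood at -0.34 ± 0.11 in Abx and at -0.20 ± 0.10 in Abx_SCFA against H2O, and Jdp2, a Jun dimerization protein, at 0.27 ± 0.11 in Abx against H2O. Ddit3 (CHOP) and Atf4, factors of the stress response, stood at 0.32 ± 0.09 and 0.35 ± 0.11 in SCFA against H2O, and Ddit3 at 0.17 ± 0.10 in Abx_SCFA against H2O. None of these was called. Atf5 (0.25 ± 0.12) and Atf2, a known partner of Jun (-0.15 ± 0.11), had the smallest p in Abx_SCFA against Abx. Maff, named above, and Atf7 (-0.27 ± 0.12) did so in Abx_SCFA against SCFA. Ddit3 (-0.36 ± 0.14) and Jdp2 (-0.31 ± 0.15) did so in the interaction.

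Genes upstream of Fos and Jun are the kinases, coactivators and transcription factors that carry the activity signal to their promoters. All 27 in the table were tested, and positive values were found for 9 in Abx against H2O, 8 in SCFA against H2O, 9 in Abx_SCFA against H2O, 12 in Abx_SCFA against Abx, 13 in Abx_SCFA against SCFA and 16 in the interaction, with medians from -0.04 to 0.05. At an unadjusted p below 0.05 there were 3 lower in Abx against H2O, 2 higher and 4 lower in SCFA against H2O, 1 lower in Abx_SCFA against H2O, 1 higher and 3 lower in Abx_SCFA against SCFA, and 2 higher and 1 lower in the interaction. Of all genes, 8.79%, 13.8%, 5.56%, 6.78% and 7.85% passed in these contrasts, in that order and in either direction. Positive values were held by 45.5% to 51.8% of all genes. Mapk3, which encodes the kinase ERK1, stood at -0.19 ± 0.07 in Abx against H2O, beside Atf1 above. Map2k1 (MEK1, which activates ERK) stood at -0.39 ± 0.10 and Rps6ka5 (MSK1, a kinase of CREB) at -0.46 ± 0.12 in SCFA against H2O. Rps6ka5 stood at -0.28 ± 0.13 in Abx_SCFA against H2O. Mapk3 (0.13 ± 0.07) and the ternary complex factor Elk3 (0.17 ± 0.10) led in Abx_SCFA against Abx, Crem (-0.27 ± 0.12) and Elk4 (-0.17 ± 0.08) in Abx_SCFA against SCFA, and Map2k1 (0.40 ± 0.15) and Rps6ka5 (0.43 ± 0.18) in the interaction. The adjusted p of all of them was at least 0.247 (edgeR).

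Of 26 reported targets of ΔFosB or AP-1 that were tested, 14 had positive values in Abx against H2O, 15 in SCFA against H2O, 15 in Abx_SCFA against H2O, 14 in Abx_SCFA against Abx, 13 in Abx_SCFA against SCFA and 11 in the interaction. The medians lay between -0.05 and 0.04, near those of all genes. At an unadjusted p below 0.05 there were 1 higher and 1 lower in Abx against H2O, 4 higher and 1 lower in SCFA against H2O, 1 higher in Abx_SCFA against H2O, 3 higher and 1 lower in Abx_SCFA against SCFA, and 1 higher and 3 lower in the interaction. Of all genes, 8.79%, 13.8%, 5.56%, 6.78% and 7.85% passed in these contrasts, in that order and in either direction. Positive values were held by 45.5% to 51.8% of all genes. Bdnf, a neurotrophin that cortical neurons make, stood at 2.70 ± 1.07 in Abx and 2.07 ± 1.05 in Abx_SCFA against H2O and at -3.87 ± 1.39 in the interaction. The Bdnf value in SCFA against H2O, where 2 other genes of the list had the smallest p, is not given. The part of cortical cells in the Bdnf values was not tested. Gfap, the astrocyte filament gene, stood at -0.41 ± 0.17 in Abx against H2O and 0.25 ± 0.17 in Abx_SCFA against Abx. Vim (vimentin, 0.48 ± 0.14) and Plaur (the urokinase receptor, 0.85 ± 0.26) led in SCFA against H2O, and Plaur stood at 0.69 ± 0.27 in Abx_SCFA against H2O. Gadd45a, a growth arrest gene, stood at 0.14 ± 0.10 in Abx_SCFA against Abx and 0.37 ± 0.14 in the interaction. Fgf2 (-0.27 ± 0.11) and Ppp1r1b, the gene of DARPP-32 in medium spiny neurons (0.36 ± 0.17), led in Abx_SCFA against SCFA.

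The genes whose log2 CPM ran most like Fos over the 20 libraries, among 10422 genes with a mean of at least 5 CPM, were Hapln4 (r = 0.90), Nlk (0.89), Btg2 (0.89), Dusp1 (0.88) and Tollip (0.88). Hapln4 encodes a link protein of perineuronal nets, Nlk a kinase, Btg2 and Dusp1 are immediate early genes, and Tollip encodes an adaptor of Toll-like receptor signalling. Btg2 also followed the cortical score, with r = 0.90, and Dusp1 with r = 0.72. For Fosb the closest were Btbd10 and Gabarapl1 (both r = 0.87), and for Fosl1 Dmtf1 and Ap4s1 (both 0.68). Fosl2 was closest to Nr4a3, an immediate early nuclear receptor gene (0.84), and then to Fos itself (0.78).

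Jun was closest to Insig1 (r = 0.90) and Fdft1 (0.89), genes of sterol regulation and cholesterol synthesis. Junb was closest to RGD1304884 (0.85) and the potassium channel gene Kcnf1 (0.83), and Jund to Cdk5r2, an activator of the kinase CDK5 (0.91), and Paqr4 (0.87). Fos ranked 380 of 10422 by its likeness to Jun and 237 by its likeness to Fosb. These likenesses are descriptions over 20 libraries that differ in their cell type marker scores and in depth. The part of either in the likenesses was not tested.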

How the data were processed

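RNA of the nucleus accumbens was measured in 20 rats. Per the labels' protocols, total RNA was extracted with an RNeasy kit and cDNA was made with a SMARTer kit, from polyA RNA. The authors deposited 1 table of raw counts per gene symbol. The submitters' processing notes name STAR 2.4.0, FastQC 0.11.6 and limma, and Rnor_6.0 as the build. For the counting tool, annotation and strand setting nothing is stated in the sources used here, so reads of overlapping or antisense genes cannot be told apart. In GRCr8, LOC103691049 overlaps Fosb and was not analysed. Replicates are separate rats by the rat numbers in the titles; cage mates are not identified, and were treated as separate.

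Groups came from the treatment labels. The counts were tested with edgeR 4.0.16 in R 4.3.3 (TMM, filterByExpr with a minimum of 10 counts at the median library size and 15 in total, robust quasi-likelihood F test, 1 model of 4 groups, 16 residual degrees of freedom). Calls needed a Benjamini-Hochberg adjusted p below 0.05 over all 12846 genes. CPM use TMM-scaled library sizes, and log2 CPM a prior count of 2. Single genes were also tested by exact two-sided permutation, and correlations by 100000 two-sided permutations. Marker scores are the mean log2 CPM of a list. DESeq2 1.42.0, limma-voom 3.58.1, other scalings, no filter, covariates and left-out libraries were alternatives. The test was checked on simulated counts with 200 changed genes. The limit allowed by a count of 0, 3 counts or from 0.115 to 0.171 CPM, covers counting error only; the smallest member level was far above it. Levels were not compared between genes, since gene lengths of the authors' annotation were not used here.

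The members and lists were chosen with earlier results of these data known. By rule, the text names all 7 members, the 2 members of each pathway list with the smallest p in each contrast, the 5 genes most like Fos and the 2 most like each other member. Promoters are RefSeq sequences of GRCr8, matched by symbol for 5 of 7 members.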

Additional observations from a re-analysis of the deposited data

Results flagged for a closer look

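Of 28 pairs of a member and a group examined for a single library far from the others, 1 stood out, where chance gives about 1 in 20. Fosl1 was at 7.50 CPM in H2O replicate 2, while the other 4 H2O rats had 4.49 to 5.18 CPM, a gap of 0.771 of the whole range of the group. The same library was also the highest of all 20 for Fosl2 and Junb. Without it, the Fosl1 log2 fold change was 0.24 in Abx, 0.31 in SCFA and 0.32 in Abx_SCFA against H2O, in place of 0.09, 0.15 and 0.17, and none of these was called by edgeR.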

How the results depend on the processing

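Of 1260 values of members under alternatives, 0 were called and 76 changed sign. Where the cortical score entered the model, the log2 fold changes that changed sign were, in Abx against H2O, Fos -0.12, Fosb -0.16, Fosl2 -0.11, Jun -0.18, Junb -0.025 and Jund -0.061, in SCFA against H2O, Fos -0.28, Fosb -0.20, Fosl2 -0.24, Jun -0.062 and Jund -0.086, in Abx_SCFA against H2O, Fos -0.32, Fosb -0.16 and Junb -0.094, in Abx_SCFA against SCFA, Fosb 0.036, and in the interaction, Fos 0.084, Fosb 0.20, Fosl2 0.063 and Junb 0.19. The Jun value of Abx_SCFA against H2O, close to 0, was 0.0042 with DESeq2, 0.0039 with RLE scaling, 0.013 with upper-quartile scaling, 0.014 with limma-voom quality weights, 0.0072 with no filter, 0.0047 with only those groups and 0.0031 without SCFA replicates 2 and 5. Without those 2 libraries Fosb was also at -0.0051 in SCFA against H2O, and at 0.098 in Abx_SCFA against SCFA, where Fos was at 0.081, and Junb at 0.026 in the interaction. Fosb in Abx_SCFA against SCFA was 0.0046 with limma-voom and 0.035 with quality weights, which put Fosl2 at 0.033 in Abx_SCFA against H2O. Without Abx_SCFA replicate 5 and H2O replicate 4, chosen after seeing the data, Fosl2 was at 0.0049 and Jun at 0.049 in Abx_SCFA against H2O, Fosb at 0.015 in Abx_SCFA against Abx and Junb at 0.010 in the interaction, while Fos stood at 0.55 in Abx, 0.53 in SCFA and 0.32 in Abx_SCFA against H2O and at -0.76 in the interaction. The correlation of Fosl1 with the cortical score was -0.045 without the 2 farthest libraries and -0.0078 on deviations. The cause of these changes was not tested.

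Leaving out 1 library at a time, Fosb ran from -0.077 to 0.079 in Abx_SCFA against Abx, -0.13 to 0.092 in Abx_SCFA against SCFA and -0.0020 to 0.27 in SCFA against H2O, Fosl1 from -0.070 to 0.061 in Abx_SCFA against SCFA and Fosl2 from -0.097 to 0.094 in Abx_SCFA against H2O. Jun ran from -0.023 to 0.17 in Abx against H2O, -0.16 to 0.024 in Abx_SCFA against Abx and -0.054 to 0.060 in Abx_SCFA against H2O, Junb from -0.12 to 0.029 in SCFA against H2O and -0.11 to 0.042 in the interaction, and Jund from -0.0028 to 0.058 in SCFA against H2O and -0.024 to 0.086 in the interaction. Fos kept its sign throughout, from 0.30 to 0.65 in Abx and from 0.33 to 0.62 in SCFA against H2O.

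The count of called genes, 0 in all contrasts with edgeR, was with DESeq2 1 in Abx against H2O, 10 in SCFA against H2O, 1 in Abx_SCFA against H2O, 3 in Abx_SCFA against SCFA and 5 for any group. Without Abx_SCFA replicate 5 and H2O replicate 4 it was 2 in SCFA against H2O, 5 in Abx_SCFA against SCFA, 1 in the interaction and 3 for any group, and without 1 library from 0 to 2 in SCFA against H2O, in Abx_SCFA against SCFA and for any group. None of these genes was a member. No paired analysis was possible because the replicate numbers follow accession order and pair no rats. The number series, which Abx and H2O rats share, entered a fit of those 9 libraries as a term: Fos stood at 0.48 in Abx against H2O (edgeR unadjusted p = 0.0866), each member kept its sign, and 0 genes were called, with 1235 at an unadjusted p below 0.05. The counts of the 7 genes were well above the filter in every library. The part of depth in their values was examined only by the correlations with library size given above. The number of rats limits precision: the 95% interval of the Fos difference between Abx and H2O spans -0.05 to 1.05.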
